A study of Rattus norvegicus with 8 samples.

Results

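Among the transcripts measured in the cortex of mature rats, 99 array probes without a current gene symbol were much lower in animals that had had a hypoxic-ischemic brain insult as pups. These 99 probes name 87 targets, out of 41012 probes and 36626 targets on the array. A probe was taken when the RefSeq transcripts of the rat assembly GRCr8 gave its target no symbol and it was well above background on all 4 Control arrays. Its mean in the insulted animals, labelled Rice, also had to lie at least 2 below the Control mean on the log2 scale, with the highest Rice value below the lowest Control value. The members were thus chosen by their measured Rice and Control values, and their differences are a description that carries no test.

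The Rice group was 4 Wistar rats, and at 7 days of age their left carotid artery was tied and sectioned under ether. After a recovery of 1 to 2 h they spent 1 h in 8% oxygen at 33 °C. The Control group was 4 Wistar rats with no insult. All 8 animals were sampled at 8 weeks of age, 1 per array, from the cortex on the side away from the cut artery or the same side in Controls. The sex and litter of the animals are not given in the sources used here, and the label of the control animals names no sham operation. An insult of this kind injures the hemisphere of the cut artery most, and the tissue measured here is from the other side. In such bulk tissue, fewer cells of a type and less RNA per cell cannot be told apart.

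Levels are log2 processed intensities minus the array's own 75th percentile, so that 0 is the 75th percentile of that array. That percentile was an intensity of 475.0 to 498.5 on the Rice arrays, and 436.1 to 510.2 on Control arrays 2 to 4 but 234.2 on Control 1. Between 57.7% and 66.2% of an array's probes stood well above background. All 10 cortical marker genes examined, of neurons, astrocytes, oligodendrocytes and microglia, were well above background on all 8 arrays. All Rice arrays lay on 1 slide with its scan and all Control arrays on another, so for every difference given here the group cannot be told apart from slide and scan. The number of arrays limits the precision, and the spread among 4 animals is the error behind each mean.

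What a target is can be read from its name only in part. Names that begin with XM_ are predicted messenger RNAs that NCBI's annotation pipeline built from the genome, and such models are revised or withdrawn when an assembly is replaced. Names with NM_ are RefSeq messenger RNA records, names with TC are clusters of overlapping transcript sequences, and the remaining names are single GenBank records, mostly expressed sequence tags, or the probe's own name. A probe reports whatever labelled RNA pairs with it, so it can detect a transcript whose gene model no longer stands, and related transcripts that share its sequence. No gene, function or sequence is given to a member here, since the tables used pair none with these names.

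The rule took 99 of the 15320 unnamed probes that were well above background on all Control arrays, a share of 0.646%. Applied to the 6757 probes with a gene symbol that passed the same filter, the same value conditions took 4 (0.0592%). Turned round to ask for higher values in Rice, they took 11 of 17314 unnamed probes (0.0635%) and 4 of 7394 probes with a symbol (0.0541%). The 11 became 17 without Control 1 and also without Control 2. Large differences between the groups were thus more frequent among unnamed probes in the downward direction than in the 3 other counts. The median difference over all eligible unnamed probes was -0.07, and over eligible probes with a symbol it was 0.04. In limma's fit over 24826 probes, 159 were lower in Rice at an adjusted p under 0.05 (0.64%) and 40 were higher (0.161%). Without Control 1 the calls were 519 lower and 361 higher, and without any other single array 110 to 148 lower and 12 to 33 higher. The fit included 98 of the members and 88 of them were among those 159 calls, which the choice of members makes no evidence.

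On the Rice arrays 65 members were still well above background on all 4, 15 on 1 to 3, and 19 on none, so the differences of the last 19 are bounds. As measured, the members differed by -7.48 to -2.01, with a median of -3.21, a level 9.26-fold lower in Rice. With each of the 19 at its bound, the median was -3.08, a level 8.44-fold lower in Rice. At their bounds or measured values, 52 members lay at -3 or lower, 8 at -4 or lower and 3 at -5 or lower. By the measured values alone these counts were 64, 21 and 5. Mean levels lay above the 75th percentile of the array for 6 members in Rice and for 55 in Control. The SD over 4 animals had a median of 0.50 in Rice and 0.34 in Control. Among the 65 members measured on all 8 arrays, the gap between the lowest Control value and the highest Rice value ran from 0.05 to 3.88, with a median of 2.31.

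**Figure D1:**
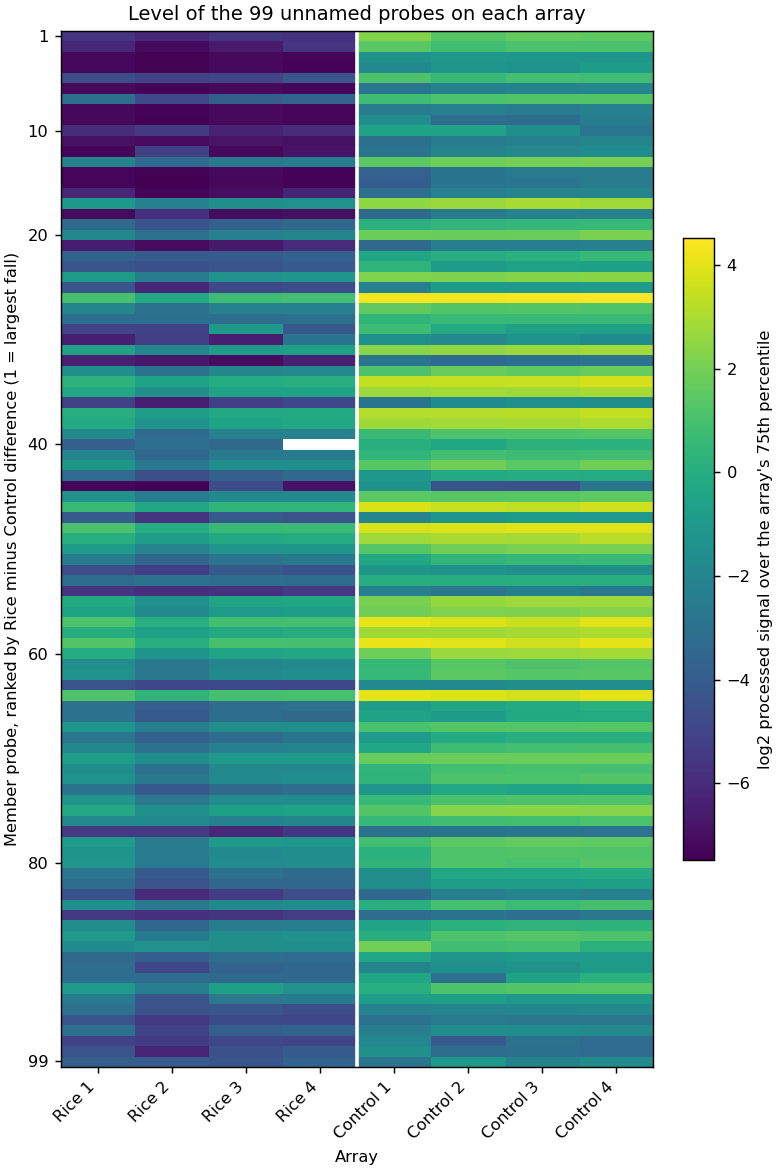
Level of the 99 member probes (rows, ranked by Rice minus Control) on each of the 4 Rice and 4 Control arrays (columns), coloured by log2 processed signal over the array's 75th percentile. The differences run from -7.48 in the top row to -2.01 in the bottom row, and the blank cell is the missing Rice 4 value of AB072252.

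The 2 members with the largest differences are transcript clusters. Cluster TC560869 (probe A_44_P976992) had levels of -5.62, -6.16, -5.64 and -5.70 on Rice arrays 1 to 4, against 2.28, 1.35, 1.63 and 1.55 on Control arrays 1 to 4. Its processed intensities were 10.03, 6.93, 9.52 and 9.61 in Rice animals, against 1135, 1301, 1353 and 1364 in Control animals. It was below the lowest signal counted as well above background in every Rice animal and above the 75th percentile of the array in every Control animal. Because it was not well above background on any Rice array, the difference is a bound: at least 106.9-fold lower in Rice. The bound sets the Control mean against the higher of the probe's own Rice signal and the lowest signal well above background on that array, which was -5.15 to -4.93 on the Rice arrays. Some spots brighter than this floor were not well above background, so every bound given here holds for this floor only. XM_343674 A_44_P855953, for example, was well above background on 1 Rice array, with levels of -4.05, -5.33, -4.87 and -4.78 in Rice animals.

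Cluster TC539365 (A_44_P960530) showed the same pattern, with -6.10, -7.12, -6.61 and -5.64 in Rice animals, against 1.47, 0.84, 1.06 and 1.06 in Control animals. It was at least 70.8-fold lower in Rice. For TC526465 (A_44_P901064) the levels were -7.22, -7.39, -7.17 and -7.29 in Rice animals, against -1.34, -1.10, -1.17 and -1.26 in Control animals, at least 14.1-fold lower. The array holds a further probe of TC526465, A_44_P901061, which was well above background on 2 Control arrays and no Rice array and so was not eligible. Its levels were -7.27, -7.45, -7.21 and -7.37 in Rice animals, against -5.71, -4.44, -4.41 and -5.62 in Control animals. Its Rice values, and the Control values not well above background, have no reliable order. The further probe was thus detected on 2 Control arrays only, and no difference between the groups is given for it.

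Predicted transcript XM_226313 (A_44_P323951) had -7.24, -7.41, -7.19 and -7.34 in Rice animals, against -1.85, -1.24, -1.32 and -0.88 in Control animals, at least 13.2-fold lower. XM_346110 (A_44_P276899) was well above background on 3 Rice arrays, with -4.62, -5.02, -4.97 and -4.32 in Rice animals, against 1.15, 0.64, 0.93 and 0.86 in Control animals. Its measured difference was -5.63, with 1 of the 4 Rice values not well above background.

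The next targets in order of difference mostly had no Rice array above background. The bounds were at least 6.83-fold for XM_001079430, 6.39-fold for XM_001062312, 5.39-fold for AI228198, 13.0-fold for A_44_P536567, 6.09-fold for XM_001070367, 7.56-fold for XM_001078899, 4.51-fold for XM_226288 and 4.18-fold for XM_229861. Over all 19 members of this kind the bounds ran from 4.07- to 106.9-fold with a median of 6.09. Their measured Rice means lay between -7.32 and -5.53, where values have no reliable order, and their Control means between -3.01 and 1.70. On the processed signal used here, and with the floor set at the lowest signal well above background, these 19 were thus lower in Rice by at least 4.07-fold. A higher floor would make the bounds smaller. The measured intensities set no upper limit on the difference. The bounds depend on the background correction. With normexp, a correction that keeps dim signals from falling as far, and 75th percentile scaling, 5 of the 19 met the rule. AI409900, for example, differed by -0.98 under that setting.

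The 65 members that stayed well above background on all 8 arrays give differences measured on both sides. They ranged from -4.94 to -2.01 with a median of -3.10, which is 8.58-fold, and the largest was 30.7-fold. The largest belonged to XM_217542 (A_44_P103127), with -3.06, -4.81, -3.82 and -3.62 in Rice animals, against 0.81, 1.11, 1.25 and 1.27 in Control animals. XM_001056500 (A_44_P351963) followed with -2.07, -3.24, -2.61 and -2.39 in Rice animals, against 1.49, 1.85, 2.03 and 2.07 in Control animals, a difference of -4.44. In both, Rice 2 was the lowest array of its group and the groups were more than 3 apart.

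Some members stayed above the 75th percentile of the array in Rice. XM_001056700 (A_44_P447781) had levels of 1.25, 0.11, 1.01 and 0.97 in Rice animals, against 4.11, 3.94, 3.66 and 4.03 in Control animals, a difference of -3.10. XM_217515 (A_44_P398641) had 1.14, 0.08, 0.90 and 0.93 in Rice animals, against 4.09, 3.90, 3.57 and 3.99 in Control animals. XM_343745 (A_44_P128747) had 1.06, -0.04, 0.68 and 0.72 in Rice animals, against 3.78, 3.86, 3.92 and 3.94 in Control animals. All 3 were well measured in both groups, and all 3 were lowest on Rice 2. XM_001078992 and XM_343652 complete the 5 members with the highest Control means that were not picked for another reason, with differences of -3.29 and -3.58.

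Among these 65 members the Rice mean followed the Control mean (r = 0.93 over 65 probes, which share the same 8 arrays). The median difference was -2.70 for 13 members with a Control mean of -2 to 0, -3.08 for 33 members from 0 to 2, and -3.27 for 19 members above 2. The rule's threshold and the limit of detection in Rice bound these differences from both sides, so nothing is read from the correlation or from that order. Most unnamed probes above the 75th percentile in Control differed little between the groups. Members lie at -2 or lower by the rule, so the counts that follow are a description and no test. Of 6123 eligible unnamed probes with a Control mean of 0 or higher, 6005 differed by less than 1 in either direction. A further 16 lay between -2 and -1.5 and 33 between -1.5 and -1, while 58 lay at -2 or lower, 55 of them members. Of 3729 probes with a symbol and a Control mean of 0 or higher, 1 lay at -2 or lower, the probe of Iqcm.

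**Figure D2:**
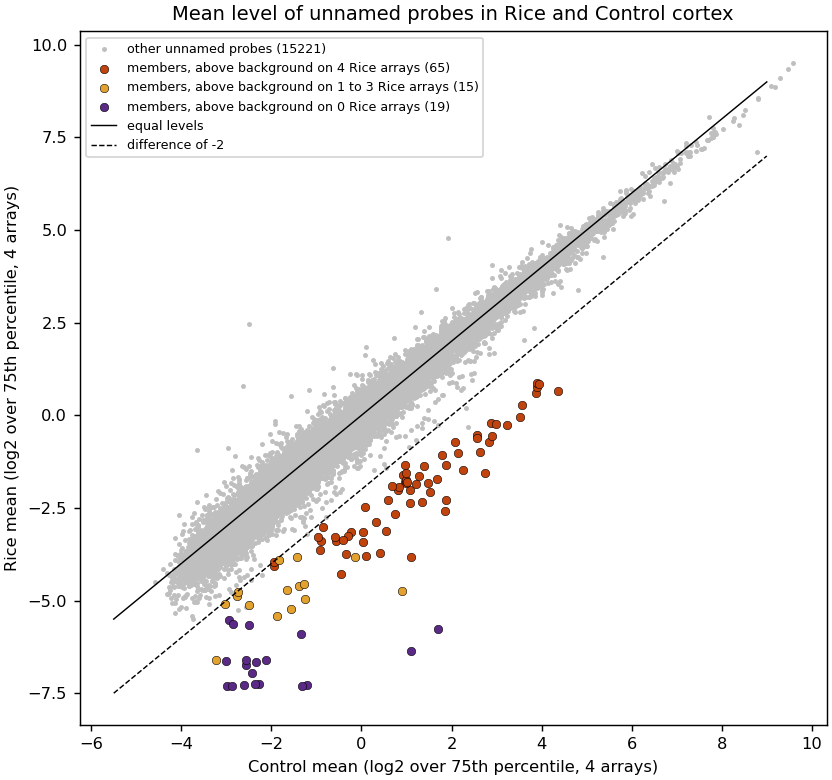
Mean level in Rice (vertical) against mean level in Control (horizontal) for the 15320 unnamed probes well above background on all Control arrays, both in log2 over the 75th percentile, 4 arrays each. Grey points are the other probes, and coloured points are the members by how many Rice arrays were above background, with the 65 measured on all 8 arrays forming a band below the line of a difference of -2.

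Some targets have several probes on the array. Member probes were each chosen by the rule on these same values, so agreement among them is a description and no independent check. NM_001014221, the only member target with an NM_ name, has 7 probes on the array and all 7 are members, with differences of -3.72 to -2.32. Probe A_44_P149896 had levels of 1.03, -0.13, 0.81 and 0.91 in Rice animals, against 4.30, 4.29, 4.38 and 4.52 in Control animals. The smallest difference was that of A_44_P255728, with -1.02, -2.33, -0.66 and -1.39 in Rice animals, against 0.04, 1.16, 1.30 and 1.38 in Control animals. The differences of the other 5 probes were -3.46 (A_44_P229677), -3.09 (A_44_P124121), -3.08 (A_44_P135786), -2.70 (A_44_P114352) and -2.55 (A_44_P171155). Rice 2 was the lowest Rice array for all 7 probes, and none of the 7 had groups that overlapped, which the rule required.

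**Figure D3:**
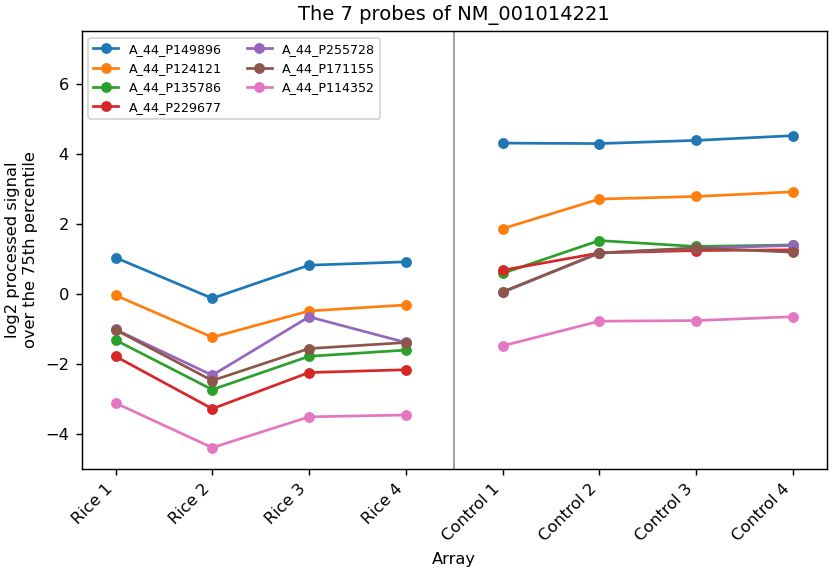
Level of each of the 7 probes of NM_001014221 (lines) on the 4 Rice and 4 Control arrays, in log2 processed signal over the array's 75th percentile; lines join the arrays of a group only to follow a probe. All 7 probes are lower in Rice by 2.32 to 3.72, with their lowest Rice value on Rice 2.

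For 5 further targets both probes on the array are members. XM_343747 differed by -4.14 (A_44_P375447) and -2.78 (A_44_P302479), XM_576797 by -3.41 and -3.18, XM_001063747 by -3.01 and -2.85, and XM_001060929 by -2.95 and -2.91. XM_343727 was at least 5.86-fold lower on A_44_P351972, with no Rice array above background, and differed by -2.07 on A_44_P154571, with 3 Rice arrays above background. XM_001056098 has 3 probes, and its 2 member probes were not above background on any Rice array, at least 6.53-fold and 5.54-fold lower in Rice. Its remaining probe, A_44_P466345, was not well above background on any of the 8 arrays and says nothing about the direction.

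A target whose probes did not move together was XM_344130. Member probe A_44_P288117 had -7.30, -7.47, -4.75 and -6.91 in Rice animals, against -1.29, -4.37, -4.47 and -2.80 in Control animals. The target's further probe, A_44_P332702, had 0.85, 0.70, 0.90 and 0.67 in Rice animals, against 0.87, 0.52, 0.59 and 0.69 in Control animals, a difference of 0.11. The 2 probes disagree, so no direction is given for XM_344130. For XM_343674, member probe A_44_P185294 differed by -3.24, and its further probe A_44_P855953 just missed the threshold at -1.86 with groups that did not overlap.

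By kind of name, 72 members are XM_ predicted transcripts (66 targets), 7 are probes of the single NM_ target, 10 are TC clusters, 8 are GenBank records and 2 carry only a probe name. XM_ names make up 72.7% of the members and 51.3% of the eligible unnamed probes. The share of eligible probes that are members was 0.916% for XM_ names, 0.474% for TC clusters, 0.411% for probes with only a probe name and 0.183% for GenBank records. It was highest for NM_ names, at 3.63%, where all 7 members are probes of 1 target. None of 166 eligible Ensembl transcripts and none of 133 predicted XR_ RNAs were members. The median difference over all eligible XM_ probes was -0.01, so predicted transcripts in general did not share the pattern. Well above background on all 8 arrays were 59 of the 79 with a RefSeq name and 6 of the 20 with other names.

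Many member names lie close together in number. RefSeq numbers predicted transcripts in the order in which a batch of models is registered, and neighbours in number can be, but need not be, neighbours on a chromosome. No coordinates were used here. Of the 72 XM_ members, 27 (37.5%) had another member target within 10 accession numbers, compared with 94 of 7785 other eligible XM_ probes (1.21%). Within 50 numbers the shares were 43.1% and 5.07%. These windows were chosen after the values were seen.

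A run was drawn from member to member, with successive members no more than 30 accession numbers apart. The longest run spans the 106 numbers between XM_343646 and XM_343751. The array has 37 probes of 33 targets there, none with a symbol, and 35 are eligible. Of these 35, 17 are members (15 targets), 12 of them above background on all 8 arrays, with a median difference of -3.37 over those 12, and 3 on no Rice array. The 18 others had a median difference of -0.14 and ranged from -1.86 to 0.24. XM_343646 (A_44_P443367), at the start of the run, had -0.94, -2.37, -1.39 and -1.22 in Rice animals, against 2.20, 2.14, 2.29 and 2.41 in Control animals. XM_343751 (A_44_P121796), at its end, had -1.89, -2.94, -2.24 and -2.03 in Rice animals, against 1.83, 1.75, 1.78 and 2.10 in Control animals. Between them lay non-members such as XM_343649 (A_42_P492130), with 2.61, 2.47, 2.52 and 2.54 in Rice animals, against 2.15, 2.60, 2.53 and 2.62 in Control animals. Members and non-members were thus interleaved. Of the non-members XM_343674 A_44_P855953 (-1.86) and XM_343686 (-1.62) came closest to the threshold, and the next was XM_343658 at -0.66. The targets named here to show the run were chosen after their values were seen.

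**Figure D4:**
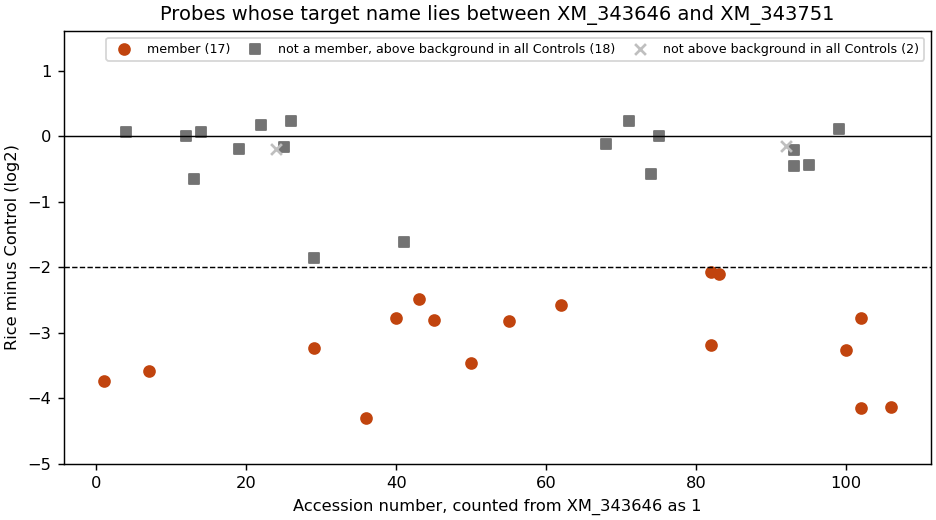
Rice minus Control difference (log2) of the 37 probes whose target names lie between XM_343646 and XM_343751, by accession number counted from the first. Members (17) lie at or below the dashed line at -2, and 16 of the 18 other probes above background in all Controls lie between -1 and 0.24.

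There are 5 shorter runs. Since each run starts and ends at a member by definition, a high share of members in a short run is built in and is no evidence of clustering. Between XM_226288 and XM_226313 all 3 eligible probes are members. XM_226292 (A_44_P152134) was above background on all 8 arrays and differed by -3.68, while the 2 others are the bounds of at least 4.51-fold and 13.2-fold given for XM_226288 and XM_226313. The run between XM_217510 and XM_217542 has 3 members among 4 eligible probes, with a median of -3.40, and the remaining one differed by -0.04. In each of the runs XM_229800 to XM_229809, XM_346173 to XM_346182 and XM_576721 to XM_576728, both eligible probes are members, with medians of -2.82 and -2.68 in the first 2. In the last, XM_576721 differed by -2.70 and XM_576728, with 3 Rice arrays above background, by -3.72.

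Probe numbers, which the manufacturer assigned, also clustered. Of 97 members with an A_44_P number, 20 (20.6%) had another member within 10 probe numbers, compared with 23 of 12942 other eligible unnamed probes (0.178%). These make 10 pairs, every one of 2 different targets. In 5 of the pairs both probes were above background on all 8 arrays. Examples are XM_001074825 (A_44_P128737, -2.82) with XM_343745 (A_44_P128747, -3.27), and XM_346182 (A_44_P328646, -2.59) with XM_576882 (A_44_P328654, -2.76). The differences in these 5 pairs lay a median of 0.47 and at most 1.24 apart, and the rule had chosen both probes of each pair for a low value. Whether the probes of such a pair share sequence was not tested, since probe sequences were not used here, and how many separate transcripts the 87 names stand for is not known from these values.

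On the slide itself the members were spread out. They occupied rows 11 to 521 of 532 and all columns from 1 to 85, with 28 at the upper left, 23 at the upper right, 25 at the lower left and 23 at the lower right. The scanner's own error estimate for a spot's signal had a median of 10.3% on Rice arrays, for members above background on all 8 arrays, and 10.03% on Control arrays for all members.

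The members also varied together among animals of a group, which the rule did not ask for. Among the 64 members above background on all 8 arrays and with no missing value, Rice 2 was the lowest Rice array for 56 (87.5%), compared with 35.6% of 15089 other unnamed probes above background on all 8 arrays. Rice 1 was the highest Rice array for 87.5% of these members and 25.5% of the others. In the Control group, Control 1 was the lowest array for 48 of these 64 members and 32.3% of the others, and the highest for 10.9% of members and 55.7% of the others. The median of these members had a deviation from its group mean of -0.72 on Rice 2 and 0.44 on Rice 1. On Control 1 it was -0.28, where that of the other probes was 0.18. With the dimmer members included, whose order in Rice is not reliable, Rice 2 was lowest for 83 of 98 (84.7%). Rice 2 and Control 1 were thus the arrays on which most members were lowest within their group.

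**Figure D5:**
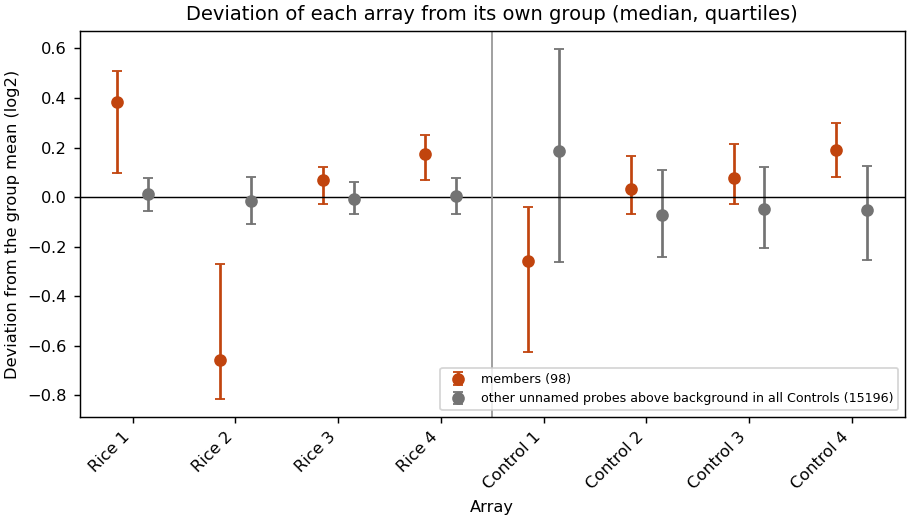
Deviation of each array from its own group's mean (log2; point, median; bars, quartiles) for the 98 members with no missing value, dim ones included, and 15196 other unnamed probes above background in all Controls. Members have medians of 0.38 on Rice 1, -0.66 on Rice 2 and -0.26 on Control 1, while the other probes lie near 0 on the Rice arrays and at 0.19 on Control 1.

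The mean pairwise correlation of these deviations over the 8 arrays was 0.43 among the members, and 0.04 among other eligible unnamed probes. Without Rice 2 it was 0.29 among the members, without Control 1 it was 0.50, and without both it was 0.32. Among the 64 members above background on all 8 arrays it was 0.63, and 0.54 without Control 1 and Rice 2. Among the 79 members with a RefSeq name it was 0.55, and among the 19 with other names 0.10. Both of these last values include members that were not above background on the Rice arrays. These values describe probes on the same 8 arrays and carry no p.

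Control 1 and Rice 2 stood apart in other ways as well. Control 1 had the lowest 75th percentile of intensity, 234.2. On Rice 2 the summed level of 8 measured marker genes of meninges and fibroblasts, in linear units of the 75th percentile, was 169.2, with 6 of the 8 genes above background on every array. It was 14.6 to 50.4 on the other Rice arrays and 9.76 to 41.7 on the Control arrays. The choroid plexus list, with 3 of its 6 genes measured and 1 of them above background on every array, summed to 1.30 to 263.2 on Rice arrays. On Control arrays its sum was 0.586 to 203.9. The red blood cell list, with 3 of 5 genes measured and 2 of them above background on every array, summed to 4.78 to 11.7 on Rice arrays. On Control arrays its sum was 3.43 to 4.49. The striatal list, with 3 of 5 genes measured, summed to 2.12 to 2.61 on Rice arrays and 2.73 to 3.31 on Control arrays. The cortical list summed to 254.8 to 348.9 on Rice arrays and 236.1 to 410.1 on Control arrays. The blood sum was higher on every Rice array than on any Control array, with all 3 measured genes higher in Rice. The striatal sum was lower on every Rice array, but only Penk was lower in Rice (-0.58), with Adora2a at 0.08 and Ppp1r1b at 0.32. The other 3 sums overlapped, and the part of any of them in the members' differences was not tested. With Rice 2 left out, 92 of the 99 members still met the rule, with a median difference of -3.06.

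A few members had a wide spread within a group. These were chosen after their values were seen. In AI045810 (A_44_P277176) the levels were -5.03, -5.05, -1.03 and -4.16 in Rice animals, against 0.79, -0.15, -0.61 and -0.62 in Control animals. In CB720810 (A_44_P677758) they were -6.40, -5.26, -6.48 and -2.81 in Rice animals, against -1.47, -1.84, -1.35 and -1.63 in Control animals. For each, 1 Rice animal lay near the Control range. CB720810 was well above background on 1 Rice array only and AI045810 on 3, so the size of their spread in Rice is not reliable. In XM_230283 (A_43_P22025) it was a Control animal that lay near the Rice range, with -3.16, -3.20, -3.37 and -3.40 in Rice animals, against -0.36, -3.11, -0.56 and 0.19 in Control animals. Its gap of 0.05 was the narrowest among the members. The most uniform in Rice was TC542489 (A_44_P684845), with -3.14, -3.11, -3.13 and -3.11 in Rice animals, against 0.36, 0.59, 0.62 and 0.64 in Control animals. TC542489 did not share the low value on Rice 2. AB072252 (A_43_P16045) rests on 3 Rice arrays, with -3.80, -3.11 and -3.33 in Rice animals 1 to 3, against 0.06, -0.33, 0.22 and 0.17 in Control animals. Its spot on Rice 4 was flagged by the scanner software as an outlier, and kept in, that spot read -0.94 and moved the difference to -2.82, against -3.44 without it.

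At the edge of the rule, the members closest to the threshold were TC559196 (-2.01), BQ196242 (-2.02), BE098732 (-2.06) and XM_343727 A_44_P154571 (-2.07). Just outside it were TC523542 (-1.96), XM_343674 A_44_P855953 (-1.86), XM_214365 (-1.86) and XM_226983 (-1.80), all with groups that did not overlap. Not all of these were measured on every Rice array. BE098732 and XM_343674 A_44_P855953 were well above background on 1 Rice array, XM_226983 on 2, and BQ196242 and XM_343727 A_44_P154571 on 3. A further 7 probes had a difference of -2 or lower with overlapping groups, so that 106 of the 15320 (0.692%) passed the difference alone. The 4 of them that missed the rule by the smallest overlap were XM_343087 (-2.68), AW525916 (-2.10), TC560767 (-2.52) and BF282984 (-2.61). Of these, TC560767 and BF282984 were well above background on 2 Rice arrays and AW525916 on 3, so the size of their differences is not reliable. XM_343087 (A_44_P112488) had levels of 1.75, -2.25, -2.30 and 1.59 in Rice animals, against 1.72, 2.50, 2.58 and 2.70 in Control animals. In that probe 2 Rice animals were low and 2 lay near the Control range, whereas the rule for members asks that all 4 lie below every Control value. Separation of the groups alone was common, since 1549 of the 15320 eligible unnamed probes (10.1%) had all Rice values below all Control values.

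The 4 probes with a symbol that met the same conditions were those of Kynu, an enzyme of tryptophan breakdown, Iqcm, an IQ-motif protein, Ccn1, a secreted matrix-associated protein, and Adcy10, the soluble adenylyl cyclase. Kynu was not well above background on any Rice array. Its bound was at least 1.74-fold lower in Rice, which falls short of the rule's threshold. Iqcm (A_44_P534582) had -2.92, -3.30, -2.91 and -2.80 in Rice animals, against -0.22, -0.12, 0.20 and 0.18 in Control animals, a difference of -2.99. Its probe number lies 3 from that of member XM_346249 (A_44_P534585), which had -0.91, -2.13, -1.22 and -1.11 in Rice animals, against 1.37, 1.94, 2.10 and 2.07 in Control animals. Both were lowest on Rice 2 and their groups were far apart, with differences of -2.99 and -3.21. The other 5 probes with a symbol within 10 probe numbers of a member differed by -0.29 to 0.56.

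The size of the differences depends on the background correction. With normexp correction, which keeps dim signals from falling as far, 62 of the 99 probes met the rule, with a median difference of -2.24 over all 99. All 99 differences stayed below 0 under both normexp settings. Of the 55 members with a Control mean of 0 or higher, 53 met the rule under normexp with 75th percentile scaling, compared with 9 of the 44 below it. The members with strong Control signals are thus the ones whose place in the list rests least on the treatment of dim spots.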

How the data were processed

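Cortical total RNA of 8 rats was labelled with Cy3 and hybridised to 1-colour Agilent rat arrays, per the labels. Agilent Feature Extraction 9.5.3.1 produced the scanner files, and their probes refer to genome build rn3, per the file headers. They hold an intensity for each spot, deposited by the authors as a processed, background-subtracted signal, with median spot and local background signals and flags. The authors' deposited series table holds log2 values that correlated at 0.9997 or higher with the scanner values scaled as here and centred on each probe's median. Its direction and scale were settled by that comparison, with column medians of 0.48 for Control 1 and -0.05 to 0.04 for the others. It served as an alternative.

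Control spots were left out, outlier-flagged spots were set to missing and spots of a probe were averaged, which left 87 missing probe values among 41012 probes. No spot was saturated. A level is the log2 processed signal less that array's 75th percentile. Targets were matched without version to GRCr8 RefSeq accessions, and 10735 probes (26.2%) had a symbol. limma 3.58.1 in R 4.3.3 was fitted over probes well above background on every array of 1 or both groups, with Benjamini-Hochberg adjustment, and was tested on simulated data. The remaining steps used Python 3.11.15 with pandas 2.3.3.

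The members, the marker lists and the settings were chosen with earlier results of these data known. Named members are the 15 targets with the largest differences, all targets with several member probes, the 5 highest in Control of the rest, and the 4 closest to the threshold on each side. The alternatives were other scalings, normexp (offset 50), the authors' table, other thresholds and filters, array weights, dropping each array in turn and a block for the replicate number. Leaving out Control 1 and Rice 2 together and the windows for neighbouring names were added after seeing the data.

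Replicate numbers were checked for pairing. Deviations of same-numbered Rice and Control arrays correlated at -0.05, -0.02, -0.16 and 0.02 for numbers 1 to 4. These values gave no sign of pairing by number. They cannot exclude it, and the litter of the animals is not given.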

Additional observations from a re-analysis of the deposited data

Results flagged for a closer look

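In 198 groups of 4 values (99 members, 2 groups each), 21 had a single array far from the other 3, with a gap, relative to the group's range, above Dixon's 95% critical value. Among independent groups, chance alone gives about 1 such group in 20. The members share the same arrays and varied together, and some share a target, so that rate is no test of the 21. Control 1 was that array in 16 of the 21 and Rice 2 in 4. No cause of these values was tested. Control 1 also had the lowest 75th percentile of intensity, and the median difference of the members was -3.30 without it.

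Control 1 lay below the other Controls for 15 probes. Among the probes of NM_001014221 it read 0.67 on A_44_P229677, where the others were 1.16 to 1.25, 0.054 on A_44_P171155, where the others were 1.17 to 1.31, 0.036 on A_44_P255728, where the others were 1.16 to 1.38, and -1.49 on A_44_P114352, where the others were -0.78 to -0.66. For XM_001074324 it read -0.46 against 0.20 to 0.31 in the other Controls, and for XM_001070503 it read 1.25 against 2.35 to 2.37. For XM_001075365 it read -1.10 against -0.14 to -0.05, for XM_576882 0.18 against 1.20 to 1.24, and for XM_001067146 -2.83 against -1.62 to -1.44. For XM_576728 it read -2.19 against -0.96 to -0.88, and for XM_576721 -1.56 against -0.35 to -0.17. For XM_001056098 (A_44_P121790) it read -3.34 against -2.35 to -2.24, and for XM_001079679 -0.34 against 0.79 to 0.98. For TC542489 it read 0.36 against 0.59 to 0.64, and for A_44_P683445 -3.37 against -2.29 to -2.08. Control 1 lay above the others for 1 probe, BQ196242, with -1.47 against -3.28 to -3.11. In all of these the values of Control 1 still lay above every Rice value, as the rule requires.

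Rice 2 lay below the other Rice arrays for TC560869, with -6.16 against -5.70 to -5.62, and for TC521879, with -4.34 against -2.70 to -2.48. It lay above them for XM_580199, with -2.97 against -3.23 to -3.21, and for XM_001071038, with -5.79 against -7.12 to -6.96. Rice 3 lay below the others for XM_343685, with -6.09 against -5.53 to -5.46. TC560869, XM_001071038 and XM_343685 were not well above background on any Rice array, so the order of their Rice values is not reliable.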

How the results depend on the processing

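Scaling to the median, quantile normalization, the authors' table and kept outlier spots left 94 to 99 probes meeting the rule. Normexp left 62 with 75th percentile and 56 with quantile scaling, with medians of -2.24 and -2.14. A threshold of 3 left 64 and a signal on all 8 arrays 65. Without 1 array 92 to 110 met the rule, 92 to 99 of them the same probes, with medians of -3.30 to -3.06. For 42 named members under 15 alternatives, 565 of 630 differences moved by less than 1 SD, none turned, and they ranged from -7.71 to -0.64. Of the 65 that moved more, 32 and 31 were under the 2 normexp settings.

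The 4 probes with a symbol became 1 and 1 under normexp, 1 at a threshold of 3, 2 on all 8 arrays, 11 with no filter and 4 to 6 without 1 array. The 11 unnamed probes higher in Rice became 3 and 3 under normexp, 26 and 3 at thresholds of 1.5 and 3, 6 on all 8 arrays, 19 without Control 1 and Rice 2 and 10 to 17 without 1 array.

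Limma's 159 calls lower and 40 higher became 827 and 626 with array weights, and 110 to 519 and 12 to 361 without 1 array, the highest without Control 1. With no filter 20 were higher. With the replicate block, whose numbers gave no sign of pairing the samples, they were 69 and 7. The causes were not tested. The alternative that also reads gene names in the scanner files was not run, since names there are accessions only. Below about -5 the signal does not stand above background, and differences there are bounds. Slide and scan could not be fitted.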
